A study of Homo sapiens with 6 samples.

Results

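ATF4 was the gene described here, as 1 of 9675 genes in the table of footprint counts and as the transcript whose coverage at every nucleotide was used. It was chosen by name, and its profile along transcript ENST00000396680 and its row of the count table (ENSG00000128272) were both used. Translation complex profiling sequences the RNA that ribosomal complexes protect from RNase I. The cells were HEK293T, a human embryonic kidney line, grown for 48 h at 37 °C and fixed in 0.3% formaldehyde for 5 min, and the labels name no stress treatment. The ATF4 profile covered 5 of the 6 libraries of the series: 2 of unselected small subunits (40S 1 and 40S 2), 2 of unselected whole ribosomes (80S 1 and 80S 2), and 1 of small subunits pulled down with a goat antibody against eIF3b, a subunit of the initiation factor eIF3. All were of the same unmodified line, and an mRNA library of it has no ATF4 profile, so values are not per mRNA. In bulk libraries, more footprints per cell and more cells with them cannot be told apart. The number 1 libraries were sequenced as pairs with only read 1 used.

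ATF4 is a basic leucine zipper transcription factor that raises amino acid and stress genes when the initiation factor eIF2 is phosphorylated. Its leader is a textbook case of upstream open reading frames (uORFs). In that model a ribosome that has translated a short uORF resumes scanning. While eIF2 is active it starts again at a later uORF that overlaps the main coding sequence, and while eIF2 is limiting it reaches the main start codon instead.

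The gene lies on the plus strand of chromosome 22 from 39520559 to 39522686 in GRCh38. RefSeq promoter windows (GRCh38.p14) give a pair of transcript starts, at 39520559 and 39520562, and hold a single AUG within the first 50 transcribed bases. That AUG is followed directly by a stop codon, so this uORF is 1 codon long. Its surroundings, at chr22:39520572-39520601 on the plus strand, are printed because the highest coverage of all 5 libraries lay over them, with the start and stop codons in capitals.
ATF4 start-stop uORF: ttgcccgcccacagATGTAGttttctctgc
The AUG is at position 28 from the first of these starts and at 25 from the other. On the transcript strand, ATGTAG occurred in the first 50 transcribed bases of 0.453% of 35116 RefSeq promoter windows, any AUG followed directly by a stop codon in 1.77%, and any ATG in 40.2%. The region just before the transcript starts, at chr22:39520520-39520549, is printed because coverage rose after it, with a TATAAA sequence in capitals.
ATF4 upstream of the start: agagacgaagtcTATAAAgggccggcgggc
This TATAAA lies from -27 to -22 relative to the first start, and 2.26% of the windows held TATAAA between -40 and -20 on the transcript strand. These matches describe sequence and are not evidence of binding or of use.

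Coverage, the number of reads over each position, fell into 4 successive peaks in the first 424 nt of ATF4, a long low body and a small peak near the 3′ end. The borders were set at the minima of the mean profile of the 4 unselected libraries, because positions of the later uORFs and of the main start codon were not given in the sources used here. They gave peak 1 from position 1 to 62, peak 2 from 63 to 133, peak 3 from 134 to 237, peak 4 from 238 to 424, the body from 425 to 1248 and a terminal segment from 1249 to the last position, 1469. Only peak 1 was tied to a reading frame by sequence. Coverage summed over the file came to 61634 for 40S 1 and 17106 for 40S 2, to 53267 for 80S 1 and 21344 for 80S 2, and to 94252 for the eIF3b-bound library. Its upward steps require at least 1255 and 386 footprints for 40S 1 and 40S 2, 1106 and 497 for 80S 1 and 80S 2, and 1759 for the eIF3b-bound library, so 40S 2 and 80S 2 were the shallowest.

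The deposited count table gave a rough comparison for these borders. ATF4 had 92.5% of its eIF3b-bound footprints in the 5′ UTR area (exact Clopper-Pearson interval 91.4 to 93.4%), and peaks 1 to 3 held 91.9% of the eIF3b-bound coverage. In 40S 1 the 5′ UTR area held 60.4% of the footprints (57.8 to 62.9%), and peaks 1 to 3 held 61.9% of the coverage. The shares of the leader area and of peaks 1 to 3 were thus close in both libraries. Matched by share of counts, the start codon area began at position 224 by the eIF3b-bound library and at 196 by 40S 1. The border after peak 3 was at 237. Matched the same way, the 3′ UTR began near position 1338 by the eIF3b-bound library and near 1342 by 40S 1. The first position of the coding sequence area came out at 278 and 201, so the start of the coding sequence could not be placed closely.

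**Figure D1:**
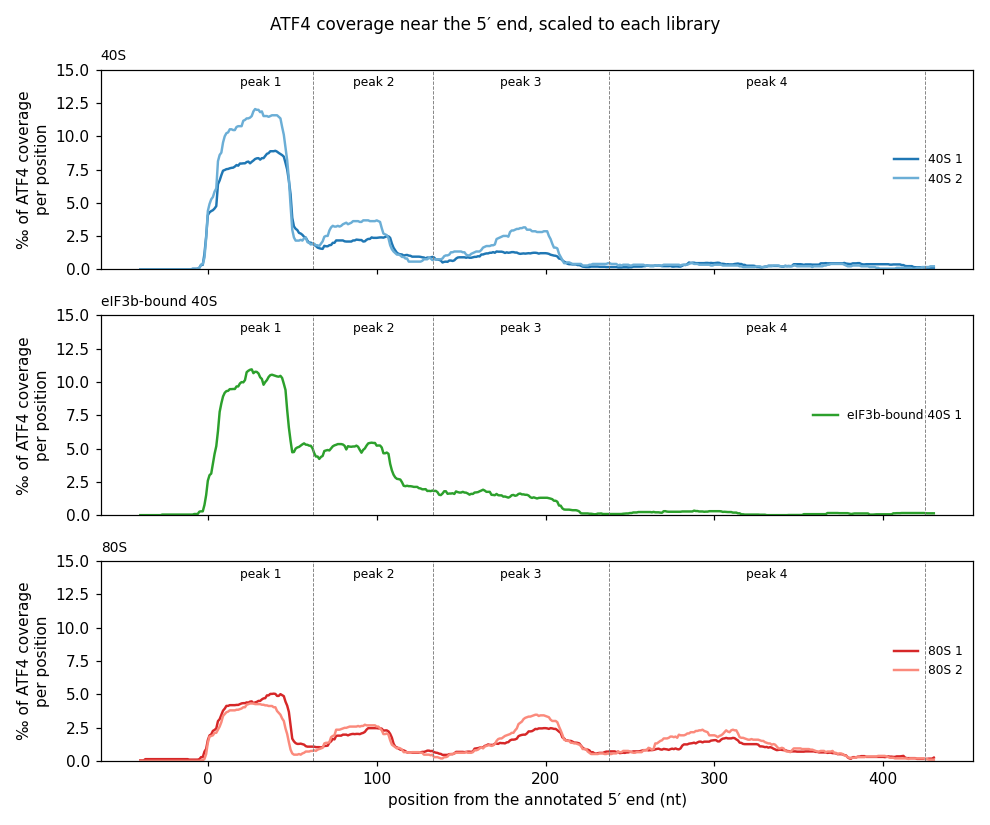
Coverage of ATF4 from 40 nt before to 430 nt after the annotated 5′ end, as per mille of each library's ATF4 coverage per position (vertical axis), for 40S, eIF3b-bound 40S and 80S libraries; dashed lines are the segment borders. Peak 1 holds 40.8% and 52.3% of the 40S coverage against 21.8% and 17.8% of the 80S coverage, and peak 4 is a clear rise in the 80S libraries.

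Peak 1, over the start-stop uORF, was the highest point of the transcript in every library. Its maximum was 549 and 206 reads for 40S 1 and 40S 2, 269 and 92 reads for 80S 1 and 80S 2, and 1032 reads for eIF3b-bound subunits. At the AUG itself coverage was 511, 206, 234, 91 and 1015 reads in the same order, between 87.0% and 100% of each maximum. The edges of the peak lay at nearly the same positions in all 5 libraries, though its maximum ranged from position 25 to 40. Coverage passed 50% of its maximum at position 4 to 6 and dropped below it after position 46 to 49. Its steepest fall lay at position 49 in 40S 1 and at 48 in the other 4 libraries, which is 20 or 21 nt past the A of the AUG, or 3 nt more from the other RefSeq start.

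Small subunits had less coverage from -40 to -1, relative to 1 to 40, on ATF4 than summed over all transcripts. From -40 to -1, mean coverage of ATF4 was 1.54% of that from 1 to 40 for 40S 1, 1.01% for 40S 2 and 1.14% for eIF3b-bound subunits. In the summed coverage the same ratio was 5.29%, 5.396% and 5.62%. Position 0, the base next to the first transcript position, lies outside both ranges. ATF4 had 251, 75 and 244 reads over it in the same order, so these ratios do not settle how sharp its edge was. At the first transcript position ATF4 coverage stood at 48.1%, 42.4% and 28.7% of its value at position 40, against 47.3%, 42.8% and 38.8% in the summed coverage. In the 80S libraries, for which no summed coverage was used here, the upstream ratio of ATF4 was 3.92% and 0.512%. Footprints thus reached the first bases of the leader in 40S and 80S fractions alike.

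Small subunits were concentrated over peak 1, and whole ribosomes were less so. Peak 1 held 40.8% and 52.3% of the coverage of 40S 1 and 40S 2, a mean of 46.5% ± 8.15 (SD, n = 2). In 80S 1 and 80S 2 it held 21.8% and 17.8%, a mean of 19.8% ± 2.88 (SD, n = 2). Both 80S values lay below both 40S values, and the difference of -26.7 percentage points exceeded the spread between libraries. With the first and last 15 positions of each segment left out it was -17.6. It was -18.9 for 80S 1 against 40S 1 and -34.5 for 80S 2 against 40S 2. An exact permutation test (two-sided) returned p = 0.333, or 0.436 with Benjamini-Hochberg adjustment over 17 measures. With 2 libraries on each side no smaller p than 0.333 exists for this exact test, here or in the comparisons that follow. Nothing in the labels ties these libraries to separate cultures, so p-values measure a spread that may be technical.

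Peak 2 was a shoulder in some libraries and a separate peak in others. Its maximum, between positions 92 and 106, was 153 and 63 reads for 40S 1 and 40S 2, 131 and 58 reads for 80S 1 and 80S 2, and 513 reads for eIF3b-bound subunits. Between peak 1 and peak 2, coverage dropped to 62.1% of the height of peak 2 in 40S 1 and 47.6% in 40S 2. It dropped further in the 80S libraries, to 41.2% and 17.2%, and least in the eIF3b-bound library, to 77.6%. The downstream edge was shared, with the steepest fall at position 109 or 110 in all 5 libraries. The share of coverage in peak 2 was 12.4% and 16.3% in 40S and 10.7% and 11.5% in 80S, a difference of -3.27 percentage points. This difference was only a little above the SD of the 40S libraries, 2.74. It was -1.33 without 40S 2 and -5.20 without 40S 1, -1.76 with segment ends left out and -5.70 with borders 15 nt upstream.

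Relative to peak 1, peak 2 was denser in 80S than in 40S. Its mean coverage per position was 26.6% and 27.2% of that of peak 1 in 40S 1 and 40S 2, against 42.8% and 56.3% in 80S 1 and 80S 2. The log2 density ratio (pseudocount 1 read per position) averaged -1.88 over the 40S libraries (SD 0.0345, n = 2). Its mean over the 80S libraries was -1.01 (SD 0.286, n = 2). The fractions did not overlap (exact permutation p = 0.333, adjusted 0.436).

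Peak 3 had equal or greater height than peak 2 in whole ribosomes and less in small subunits. Its maximum was 83 and 54 reads for 40S 1 and 40S 2, 131 and 74 reads for 80S 1 and 80S 2, and 180 reads for eIF3b-bound subunits. As a share of the maximum of peak 2 this was 54.2% and 85.7% for 40S, 100% and 128% for 80S, and 35.1% for eIF3b-bound subunits. The 80S maxima lay at positions 199 and 194, and that of 40S 2 at 187. In 40S 1 and the eIF3b-bound library coverage was a plateau instead, with maxima at 171 and 163. The steepest fall lay from 203 to 210 in all 5.

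By share of all ATF4 coverage, peak 3 did not separate the fractions. It held 8.78% and 15.95% in 40S, and 13.5% and 15.9% in 80S, and the groups overlapped (exact permutation p = 1). The log2 density of peak 3 over peak 2 did separate them, with -1.04 and -0.56 in 40S against -0.21 and -0.08 in 80S (difference 0.65, exact permutation p = 0.333, adjusted 0.436). Without 40S 1 the difference was 0.42. Coverage in a window of 15 nt on either side of the peak 3 summit was set against the mean of peaks 1 to 4. The ratio was 0.726 and 1.24 in 40S and 1.50 and 1.97 in 80S, a difference of 0.751, or 0.493 without 40S 1. That mean includes peak 1, which itself differed between the fractions. Against flanks of 50 nt the difference was 0.635 and the fractions overlapped (exact permutation p = 0.667).

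Peak 4 held a larger part of the coverage in the 80S libraries. Its maximum was 92 reads at position 307 in 80S 1 and 50 reads at position 293 in 80S 2. In 40S 1 it was 32 reads at position 285, and on eIF3b-bound subunits 32 reads at position 288. Both stood out from the dip before them, which went down to 9 and 6 reads, as the 80S peaks did from dips of 29 and 11 reads. In 40S 1 the segment was not a single peak. It held 0.475 per mille of the ATF4 coverage per position from 291 to 300 and 0.448 from 371 to 380. The 80S libraries fell from 1.47 and 2.12 to 0.445 and 0.469 between the same positions. In 40S 2 coverage had no peak here, with its highest value, 8 reads, at the first position of the segment. The share of ATF4 coverage was 15.0% and 19.5% in 80S, a mean of 17.2% ± 3.18 (SD, n = 2), and 6.15% and 4.93% in 40S, a mean of 5.54% ± 0.857 (SD, n = 2). The difference of 11.7 percentage points exceeded the spread between libraries and was 8.83 for 80S 1 against 40S 1 and 14.5 for 80S 2 against 40S 2 (exact permutation p = 0.333, adjusted 0.436). Around its summit, coverage relative to the mean of peaks 1 to 4 was 0.272 and 0.149 in 40S and 1.05 and 1.36 in 80S. That is 3.85 times as high in 80S 1 as in 40S 1 and 9.13 times in 80S 2 as in 40S 2. Taken against flanks of 50 nt instead, the difference between the fractions was 0.468 in place of 0.996.

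The step from peak 3 to peak 4 also set the fractions apart. The log2 density of peak 4 over peak 3 was -1.32 and -2.30 in 40S and -0.68 and -0.53 in 80S, a difference of 1.205 (exact permutation p = 0.333, adjusted 0.436). It was 0.71 without 40S 2 and 1.70 without 40S 1. Peaks 1 to 3 combined held 61.9% and 84.5% of the coverage of 40S 1 and 40S 2 and 46.0% and 45.1% of that of 80S 1 and 80S 2. This difference of -27.7 percentage points was -16.4 without 40S 2 and -17.0 with segment ends left out. Most of the 80S coverage therefore lay past position 237.

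**Figure D2:**
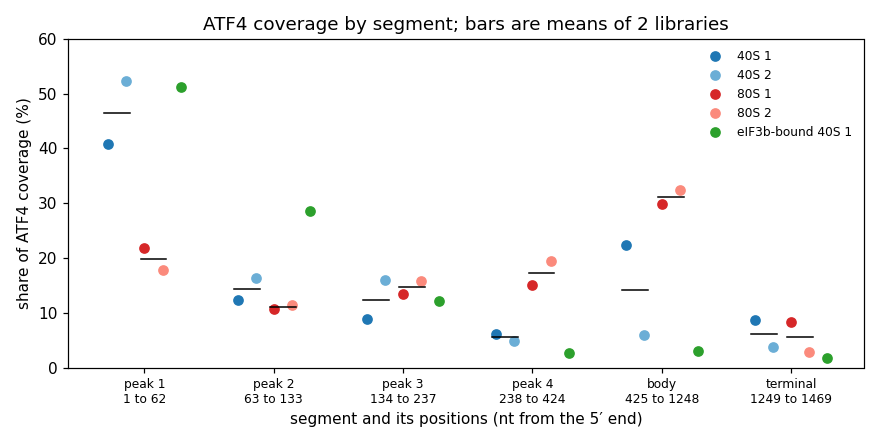
Share of each library's ATF4 coverage (vertical axis, percent) in the 6 segments (horizontal axis); points are libraries and bars are means of the 2 libraries of a fraction. The 80S points lie below the 40S points in peak 1 and above them in peak 4 and in the body, and the eIF3b-bound point stands above all others in peak 2.

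The body of the transcript, from 425 to 1248, differed nearly as much between the 40S libraries as between fractions. It held 29.9% and 32.4% of the coverage of 80S 1 and 80S 2, a mean of 31.1% ± 1.77 (SD, n = 2). In 40S 1 it held 22.4% and in 40S 2 6.004%, a mean of 14.2% ± 11.6 (SD, n = 2). The fractions did not overlap (difference 16.9 percentage points, exact permutation p = 0.333, adjusted 0.436). The difference was 7.44 for 80S 1 against 40S 1 and 26.4 for 80S 2 against 40S 2, 8.69 without 40S 2 and 25.1 without 40S 1, so its size rested on which 40S library was used. No position of the body was without coverage in either 80S library. Of its 824 positions 1.58% had none for 40S 1, 55.6% for 40S 2 and 31.9% for eIF3b-bound subunits. 40S 2 also had the least coverage in all, and the part of depth in these empty positions was not tested.

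Within the body, coverage was uneven and its high points differed between libraries. The densest 50 nt were 825 to 874 for both 40S 1 (13.0% of the body coverage) and eIF3b-bound subunits (18.9%). In 40S 2 they were 675 to 724 (24.0%), in 80S 1 475 to 524 (10.1%) and in 80S 2 575 to 624 (12.5%). Past peak 4 the density per position dropped less clearly by fraction. The log2 density of the body over peak 4 was -0.26 and -1.30 in 40S and -1.10 and -1.31 in 80S, and the groups overlapped.

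Among the 4 unselected libraries, the terminal segment went with the library number rather than with the fraction. It held 8.59% of the coverage of 40S 1 and 8.28% of that of 80S 1, against 3.70% for 40S 2 and 2.83% for 80S 2. Its maximum was 82 and 75 reads for 40S 1 and 80S 1, and 13 and 7 reads for 40S 2 and 80S 2, at positions 1347 to 1373, near or just past the matched start of the 3′ UTR. The fractions overlapped (difference -0.592 percentage points, exact permutation p = 0.667). The eIF3b-bound library, also numbered 1, did not follow this, with the lowest share of all libraries, 1.73%. The number goes with the read layout, whose part in this was not tested.

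**Figure D3:**
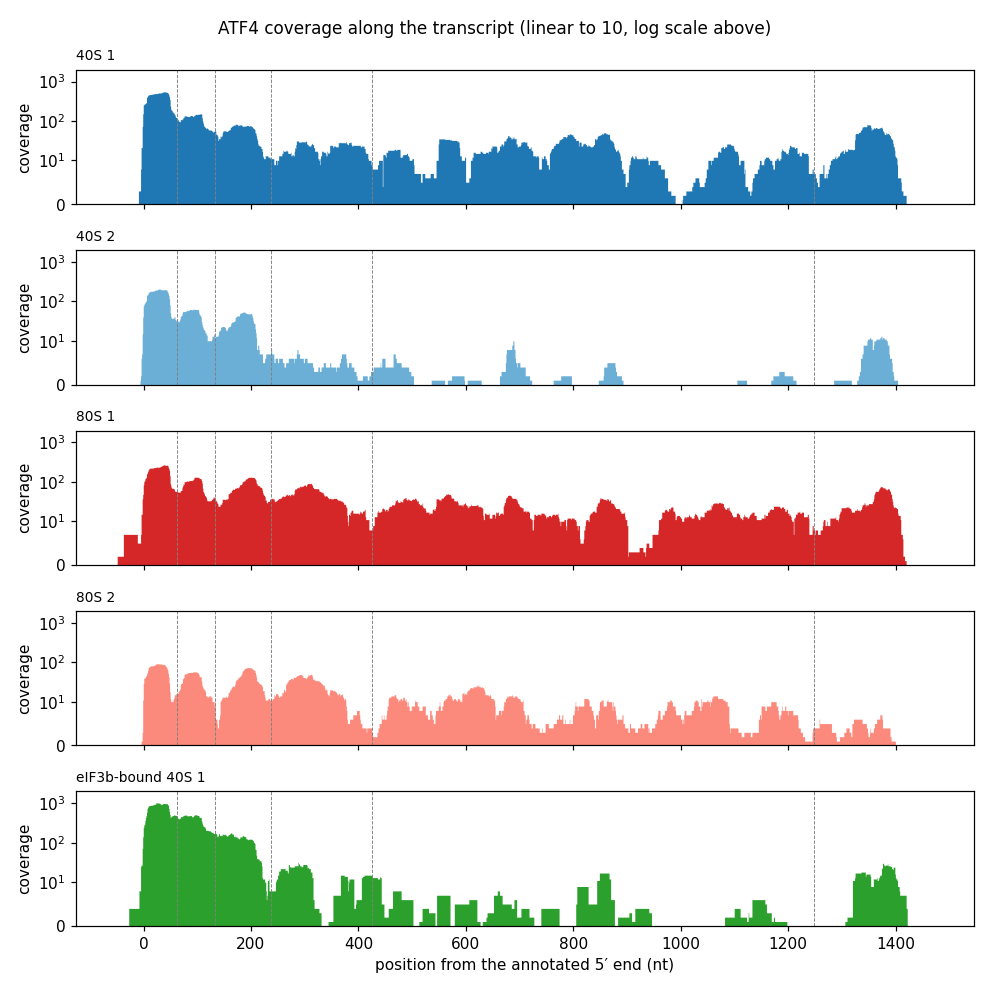
ATF4 coverage (vertical axis, reads per position, linear to 10 and logarithmic above) against position from the annotated 5′ end (horizontal axis, nt) in the 5 libraries; dashed lines are segment borders. Coverage past position 424 is unbroken in 80S 1 and 80S 2, while 55.6% of the body positions of 40S 2 have none.

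Small subunits bound by eIF3b address where on ATF4 this factor was carried by the 40S. They had 91.9% of their coverage in peaks 1 to 3, above 40S 1 at 61.9% and 40S 2 at 84.5%. There is 1 such library, so no test was made, and values are set beside both 40S libraries. Peak 1 held 51.3%, between 40S 1 and 40S 2. Peak 2 held 28.6%, which is 2.30 times the share in 40S 1 and 1.75 times that in 40S 2 and the highest of all 5 libraries. Peak 3 held 12.1%, again between the 40S libraries.

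Downstream of peak 3 the eIF3b-bound share was the lowest of the 5 libraries in each segment. Peak 4 held 2.65%, which is 0.431 times the share in 40S 1 and 0.536 times that in 40S 2. The body held 3.0%, 0.134 and 0.4998 times the 40S shares, and the terminal segment 1.73%, 0.202 and 0.468 times.

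Between peaks 1 and 3 the dips of the eIF3b-bound profile were the shallowest of the 5 libraries. From position 51 to 60, between the first peaks, it held 5.17 per mille of its coverage per position, against 2.63 and 2.204 in 40S and 1.24 and 0.567 in 80S. From 121 to 130 it held 2.02 per mille, against 0.925 and 0.643 in 40S and 0.657 and 0.590 in 80S. Between peaks 2 and 3 its coverage dropped only to 78.9% of the height of peak 3, against 38.6% and 18.5% in 40S and 18.3% and 5.41% in 80S. Between peaks 3 and 4 the eIF3b-bound dip was instead the deepest, to 18.75% of the height of peak 4. The value was 28.1% in 40S 1 and 31.5% and 22.0% in 80S. These rest on few reads, with 6 of 32 for the eIF3b-bound library and 11 of 50 for 80S 2. In 40S 2 it was 62.5%, but of 8 reads at the first position of the segment, where that library had no peak. At the peak 3 summit the eIF3b-bound value was also the lowest, with 0.591 times the mean of peaks 1 to 4, against 0.726 and 1.24 in 40S.

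As a description of likeness, Pearson correlations over the 1407 positions past peak 1 were 0.864 between the 40S libraries and 0.885 between the 80S libraries. The eIF3b-bound profile had 0.848 with 40S 1 and 0.877 with 40S 2, and 0.641 and 0.567 with 80S 1 and 80S 2. Neighbouring positions share reads, so these are not independent points.

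The count table allowed ATF4 in the eIF3b-bound library to be set against other genes, with 40S 1 as the reference. ATF4 had 2684 of the 947733 eIF3b-bound footprints and 1484 of the 834172 footprints of 40S 1, or 2832 and 1779 CPM, counts scaled to a common library total. The log2 ratio of CPM was 0.67 (95% counting interval 0.58 to 0.76), which is 0.42 above the median of 4175 genes with at least 20 counts, at the 64.2th percentile. These intervals take in counting error alone, because the reads carry no molecular identifiers and need not be independent molecules. Without the 10 genes highest in 40S 1 in the totals the ratio was 0.21, a shift common to every gene.

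By area, ATF4 on eIF3b-bound subunits had more leader footprints and fewer in the coding sequence than in 40S 1. The 5′ UTR had 2482 counts against 896, a log2 ratio of 1.29 (1.18 to 1.40). The start codon area had 24 against 9, a ratio of 1.18 (0.07 to 2.52). The coding sequence had 124 against 450, a ratio of -2.04 (-2.34 to -1.75). The stop codon area had 16 against 45, at -1.65 (-2.60 to -0.83), and the 3′ UTR 38 against 84, at -1.32 (-1.92 to -0.76).

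Read against other genes, ATF4 lay below the median in both the leader and the coding sequence, at nearly the same percentile. The median leader had a log2 ratio of 2.27 over 2407 genes, and ATF4 lay 0.99 below it, at the 13.1th percentile, where 12.8% of leaders lay at least 2-fold below the median. That percentile was 24.3 with no minimum count and 8.08 with a minimum of 50. The coding sequence lay 1.40 below its median of -0.64 over 2734 genes, at the 12.9th percentile, and 21.4% of coding sequences lay at least 2-fold below. Its percentile was 21.1 with no minimum and 9.05 with 50. The start codon area was 0.04 below its median of 1.22, the stop codon area 0.35 below its median of -1.30, and the 3′ UTR 0.21 above its median of -1.53, so all 3 lay within 2-fold. At least 2-fold above the median were 14.7% of leaders, 14.6% of start codon areas, 22.4% of coding sequences, 17.9% of stop codon areas and 28.9% of 3′ UTRs, and below it 12.5% of start codon areas, 20.5% of stop codon areas and 23.9% of 3′ UTRs. Being past or short of 2-fold was thus common among genes in both areas.

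**Figure D4:**
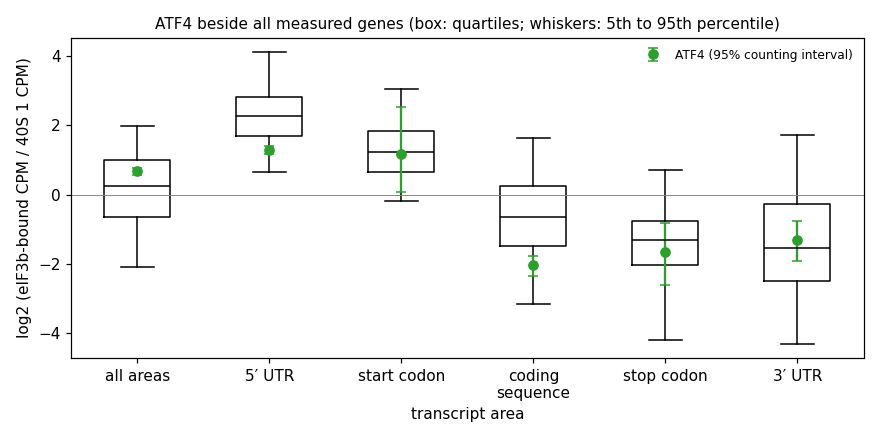
log2 ratio of CPM in the eIF3b-bound library over 40S 1 (vertical axis) by transcript area (horizontal axis); boxes are quartiles and whiskers the 5th to 95th percentile of all measured genes, and green points are ATF4 with 95% counting intervals. ATF4 lies below the lower quartile in the 5′ UTR and in the coding sequence.

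ATF4 stood apart from most genes in the share of its footprints that lay in the leader, in both libraries. Over the 1189 genes that reached 100 counts on both sides, the median leader share was 53.3% for eIF3b-bound subunits and 12.7% for 40S 1, against 92.5% and 60.4% for ATF4. Only 17 of these genes had a larger share than ATF4 on eIF3b-bound subunits and only 19 in 40S 1. These shares are not scaled to leader length, which differs between genes. The difference between the libraries was near the median, with 32.1 percentage points for ATF4 and a median of 31.1. A gene with a high share in 40S 1 has less room to gain, and the difference was not adjusted for this. The start codon area was small, with 0.894% and 0.606% of the ATF4 footprints against medians of 12.5% and 7.33%. So was the 3′ UTR, with 1.42% on eIF3b-bound subunits and 5.66% in 40S 1 against medians of 10.3% and 32.2%. The coding sequence held 4.62% in the eIF3b-bound library, below the median of 13.8%, and 30.3% in 40S 1, near the median of 31.1%.

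The genes whose area profile was most like that of ATF4, by Euclidean distance over 10 area shares from the 2 libraries, were HNRNPA0 (distance 6.07 percentage points), TAF7 (8.09), TPX2 (9.29), H1-10 (10.3) and JUN (10.8). HNRNPA0 is an RNA-binding protein, TAF7 a subunit of the general transcription factor TFIID, TPX2 a spindle assembly factor, H1-10 a linker histone and JUN a basic leucine zipper factor. Their leader shares, close to those of ATF4 by this choice, ran from 91.2% to 96.3% on eIF3b-bound subunits and from 54.8% to 63.6% in 40S 1. All 5 had a higher log2 ratio over the whole gene than the 0.67 of ATF4, from 1.48 for TAF7 to 2.196 for H1-10.

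**Figure D5:**
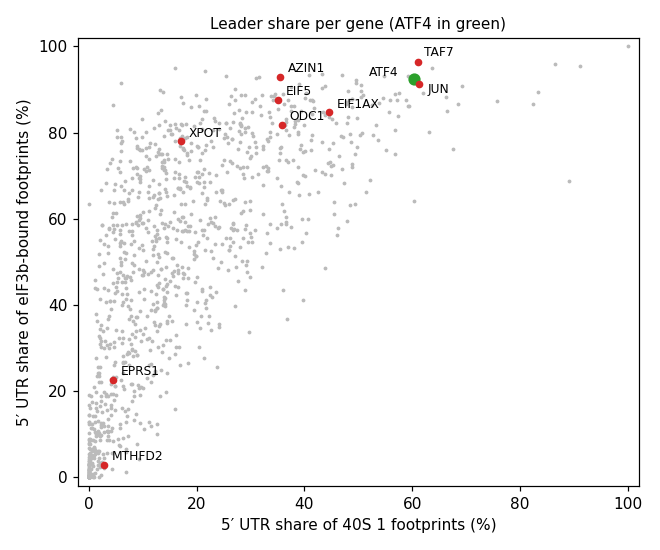
Share of a gene's footprints in the 5′ UTR in 40S 1 (horizontal axis, percent) and in the eIF3b-bound library (vertical axis, percent) for the 1189 genes that reached 100 counts on both sides; ATF4 is green and 9 named genes are red. ATF4, at 60.4% and 92.5%, lies at the upper right beside TAF7 and JUN, both among the genes picked as most like it by area shares.

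Other mRNAs under uORF control were mixed beside ATF4. Of 22 listed, 10 were measured, with a median log2 ratio of 0.91 against 0.25 over all genes. Past 2-fold from the median gene were 4 of them above and 1 below, while 18.2% of all genes lay that far above and 22.2% that far below. ODC1, an enzyme of polyamine synthesis, had 0.88, and AZIN1, which keeps ODC1 from degradation, 0.85. EPRS1, a glutamyl-prolyl tRNA synthetase, had -0.35 and TAF7 1.48. The others past 2-fold, named after their values were seen, were CEBPB (1.72), CEBPA (1.59) and HOXB2 (1.46) above, and IBTK (-1.53) below. AZIN1 had a leader share of 92.95% in the eIF3b-bound library, close to that of ATF4, but 35.5% in 40S 1.

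The list of eIF2, stress response and other initiation genes had a median of 0.27 over 6 measured genes of 17 listed. EIF1AX, which promotes scanning, was past 2-fold above at 1.75, and EIF2A, named after its value was seen, below at -1.90. These were 1 of the 6 above and 1 below, beside 18.2% of all genes that far above the median gene and 22.2% below. EIF5, the GTPase-activating protein of eIF2, had 0.91, EIF2S2, the beta subunit of eIF2, 0.43, and EIF5B, which joins the subunits, 0.11. Of 6 reinitiation and recycling factors 3 were measured, with ABCE1, which splits ribosomes, at 0.08. MCTS1 and EIF2D, which act on post-termination 40S subunits, stood on opposite sides at 1.41 and -1.04. Both lay more than 2-fold from the median gene, 1 above and 1 below, beside the same shares over all genes.

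Genes that ATF4 activates lay near the median gene. Of 33 listed, 17 were measured, with a median of 0.24, 0 lay at least 2-fold above and 1 below, which was SLC7A11 (-0.84), named after its value was seen. Over all genes, 18.2% lay at least 2-fold above and 22.2% at least 2-fold below. XPOT, a tRNA exporter, had 0.09, MTHFD2, a mitochondrial folate enzyme, -0.14, PHGDH, of serine synthesis, 0.72, and DDIT4, an inhibitor of mTORC1, 0.67. Of 18 basic leucine zipper relatives 7 were measured, with a median of 0.98, 3 above and 1 below, beside the same shares over all genes. JUN had 1.83, CEBPB 1.72, JUND 0.98 and CEBPG 0.17. CEBPA, at 1.59, was the other one above, and ATF6 (-0.80) the one below, both named after their values were seen. CEBPA and CEBPB are on both this list and that of uORF mRNAs, and CEBPG is also a listed target. By leader alone the uORF mRNAs had a median of 2.14 over 9 leaders and the targets 2.11 over 16, against 2.27 over all leaders and 1.29 for ATF4.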

How the data were processed

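The authors deposited ATF4 coverage per position in 5 libraries, and coverage summed over transcript starts, as whole numbers (signal) with no sign of scaling. Footprint counts per gene and area (9675 genes, 2 libraries), per the file headers, were deposited unscaled. CASAVA 1.8, Bowtie 1.2.2, Bowtie2 2.2.6, TopHat2 2.1.0 and build GRCh38 are named, per the submitters' processing notes. No source used here gives strand use or the handling of multi-mapping reads. Columns left unmapped numbered 0.

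Coverage rows start 50 nt upstream of the annotated transcript. Borders are minima of the mean profile of the 4 unselected libraries, smoothed over 21 nt. The AUG windows planned for the later uORFs and main start codon could not be placed from sequence, so summits of that profile replaced them. Segments were compared with an exact two-sided permutation test. Gene ratios use CPM with a prior count of 0.5, at least 20 counts, and exact intervals (scipy 1.17.1). 8322 gene identifiers matched a symbol. Steps were tested on simulated data. Of 10 marker genes of other cell types 3 were in the table, the highest with 7 counts.

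ATF4, the lists and the tests were chosen with earlier results of these data known. Genes named are ATF4, the 4 members with most counts per list and the 5 most like ATF4 by area shares; other genes past 2-fold were named after their values were seen, as the text says. Alternatives covered denominators, borders, windows, pseudocounts, capped coverage, left-out libraries, totals and count minimums. Shifted borders, summit windows and crossed library numbers were chosen after seeing the data.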

Additional observations from a re-analysis of the deposited data

Results flagged for a closer look

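The share of ATF4 coverage in peak 3 differed between 80S and 40S in opposite directions in the number 1 and number 2 libraries. It was 4.71 percentage points higher in 80S 1 than in 40S 1, and the difference of 80S 2 from 40S 2 was -0.0895 percentage points. Each rests on 1 library per fraction, and the difference between them was not tested.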

How the results depend on the processing

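Depth limits 40S 2 and 80S 2 most, which need at least 386 and 497 footprints, and the eIF3b-bound library has no replicate. Leaving aside left-out libraries and library blocks, whose direction is fixed where the fractions do not overlap, differences between 80S and 40S kept their direction in 74 of 76 recalculations of shares and densities and in 19 of 20 of windows; no p could pass 0.05. The exceptions were the terminal share (2.31 percentage points with median coverage), the log2 density of the body over peak 4 (0.59 with median coverage) and the peak 2 window (-0.00703 with 25 nt on either side). With 1 library left out the peak 3 share ran from -1.27 to 5.90, the terminal share from -3.31 to 2.13, the body over peak 4 from -0.95 to 0.0899 and the peak 2 window from -0.0269 to 0.157. The causes were not tested. Another denominator or capped coverage moved the eIF3b-bound differences from 40S by less than 1 SD of the 40S libraries in 13 of 13 recalculations. This SD comes from 2 libraries and is wide, 11.6 percentage points for the body beside a difference of -11.2. The count therefore could not show that the differences are stable. For peaks 1 and 3, inside the 40S range, the sign depended on the 40S library used.

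With the replicate block (differences within each library number, smallest exact p 0.5) mean differences are the same by construction, as with -27.7 percentage points for peaks 1 to 3. The labels tie the numbers to no shared culture or day, and deviations of same-numbered libraries correlated at -0.238 over 6 segments, too few to settle whether the numbers pair the libraries. For the 13 measures without overlap both pairs have 1 direction however they are paired. Of the other 4, 3 had 1 direction as numbered and 0 with the numbers crossed, an arrangement chosen after seeing the data; 0 measures passed 0.05 either way.

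For ATF4 counts, totals without the 10 genes highest in 40S 1 gave log2 ratios of 0.21 over all areas, 0.82 in the leader and -2.50 in the coding sequence. Set against the median gene the values were 0.42 over all areas, -0.99 in the leader, -0.0376 at the start codon, -1.40 in the coding sequence, -0.35 at the stop codon and 0.21 in the 3′ UTR, where leader, start codon and 3′ UTR change sign by the construction of that scale. Without a minimum the percentile of ATF4 was 24.3 in the leader, 21.1 in the coding sequence and 69.4 at the stop codon; with at least 50 counts it was 8.08, 9.05 and 28.8, and 58.3 in the 3′ UTR.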
